A study of Mus musculus with 12 samples.

Results

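The 8 genes described here make or steer the MHC class II pathway, the route by which professional antigen-presenting cells show peptides to CD4+ T cells. They were taken as a fixed list from the 24062 genes counted in each library. H2-Aa, H2-Ab1 and H2-Eb1 encode chains of the peptide-presenting molecules, and H2-DMa, H2-DMb1 and H2-DMb2 those of the peptide exchange factor. Cd74 is the invariant chain and Ciita the transactivator. All 8 passed the filter on low counts and are among the 16267 genes tested. The libraries came from wounded dorsal skin of diabetic C57BL/6 mice, in which streptozotocin, a toxin, had destroyed insulin-producing beta cells. There was 1 library for each of 12 mice, 3 in each of 4 groups labelled blank, DSCG, pre-MCS-01 and post-MCS-01, where MCS-01 is a mast cell stabilizer per the series title. Every group was wounded and diabetic, so none gives the level of unwounded or non-diabetic skin. The labels give no age, sex, dose, wound age or sampling time, and they do not define pre, post, DSCG or blank further. The 3 libraries of a group come from separately numbered mice.

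Class II molecules are heterodimers of an alpha and a beta chain that are assembled in the endoplasmic reticulum with the invariant chain Cd74, which fills the peptide groove and carries them to endosomes. There the invariant chain is digested, and the H2-DM heterodimer exchanges its last fragment, CLIP, for peptides of ingested proteins. Ciita binds no DNA of its own: it is recruited to class II promoters by factors bound at the W/S, X and Y boxes (the RFX complex, CREB and NF-Y), and its presence largely sets whether a cell makes class II. In skin the pathway is best known from Langerhans cells, dermal dendritic cells and macrophages, and interferon gamma can induce it in other cells.

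In GRCm38 with the GENCODE M21 annotation, 6 of the 8 genes lie together in the class II region of chromosome 17. H2-DMa spans 34119541 to 34139101 and overlaps Brd2, H2-DMb2 spans 34143307 to 34151555 and H2-DMb1 spans 34153072 to 34160230, all on the plus strand. H2-Ab1 (34257689 to 34269419, plus), H2-Aa (34282744 to 34287823, minus) and H2-Eb1 (34305867 to 34316674, plus) follow, and H2-Eb1 overlaps the antisense gene Gm20513. Ciita lies on chromosome 16 (10480059 to 10528418, plus) and overlaps Dexi, and Cd74 lies on another chromosome. No strand setting of the counting is given in the sources used here, so reads of overlapping genes on opposite strands cannot be told apart.

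Short promoter words resembling the X2 and Y boxes, which CREB and NF-Y are known to bind, recur among these genes, and 60 bases of each promoter that held both are printed to show their shared layout. The sequences are from RefSeq (GRCm38.p6), 5′ to 3′ along each gene's strand, and the capitals mark first an X2-like word and then the Y box TGATTGG. Of the 8 genes, 5 matched the promoter table. H2-Ab1, Cd74 and Ciita did not. H2-Ob, the beta chain of the H2-DM inhibitor H2-O, and H2-Eb2 are related genes outside the 8.
H2-Aa: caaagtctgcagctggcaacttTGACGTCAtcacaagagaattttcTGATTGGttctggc
H2-Eb1: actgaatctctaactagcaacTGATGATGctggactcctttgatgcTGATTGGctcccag
H2-DMb1: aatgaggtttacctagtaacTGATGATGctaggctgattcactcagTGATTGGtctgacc
H2-DMb2: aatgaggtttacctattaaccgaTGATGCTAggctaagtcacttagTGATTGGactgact
H2-Ob: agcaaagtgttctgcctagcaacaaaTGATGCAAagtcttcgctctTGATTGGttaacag
H2-Eb2: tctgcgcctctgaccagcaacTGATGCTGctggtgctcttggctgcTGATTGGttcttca

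These windows lie on chromosome 17 at chr17:34287860-34287919 (H2-Aa, minus strand), chr17:34305760-34305819 (H2-Eb1), chr17:34153082-34153141 (H2-DMb1), chr17:34145111-34145170 (H2-DMb2), chr17:34238800-34238859 (H2-Ob) and chr17:34325527-34325586 (H2-Eb2). Counted from the RefSeq start site, the Y box began at -50 in H2-Aa, -61 in H2-Eb1, -63 in H2-DMb1 and -92 in H2-DMb2. The X2-like word, as marked, began 24, 25, 26 and 23 bases before it in the same order, 20 bases before it in H2-Ob and 25 in H2-Eb2. In H2-DMb1 and H2-Eb1 the marked TGATGATG holds a further, overlapping TGATG, so the spacing there depends on which is counted. In H2-DMb1 that further word reads TGATGCTA and begins 23 bases before the Y box, as the marked word of H2-DMb2 does. TGATTGG, on either strand, was found in 7.82% of 32851 mouse promoters of the same length, TGATGATG in 1.44% and TGACGTCA in 1.79%. The pair TGANG followed by TGATTGG starting 20 to 26 bases later was found in 0.323% of them (106 promoters), either strand. That spacing was chosen after these sequences were read, so its rarity is a description and no test. Neither of the 2 H2-DMa windows held the words. These 2 windows and those of H2-DMb1 and H2-DMb2 lie inside the GENCODE gene spans given above. Their RefSeq start sites are thus downstream of the GENCODE gene starts. The window of H2-Oa, a further related gene outside the 8, held the Y box at -45 but no X2-like word.

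**Figure D1:**
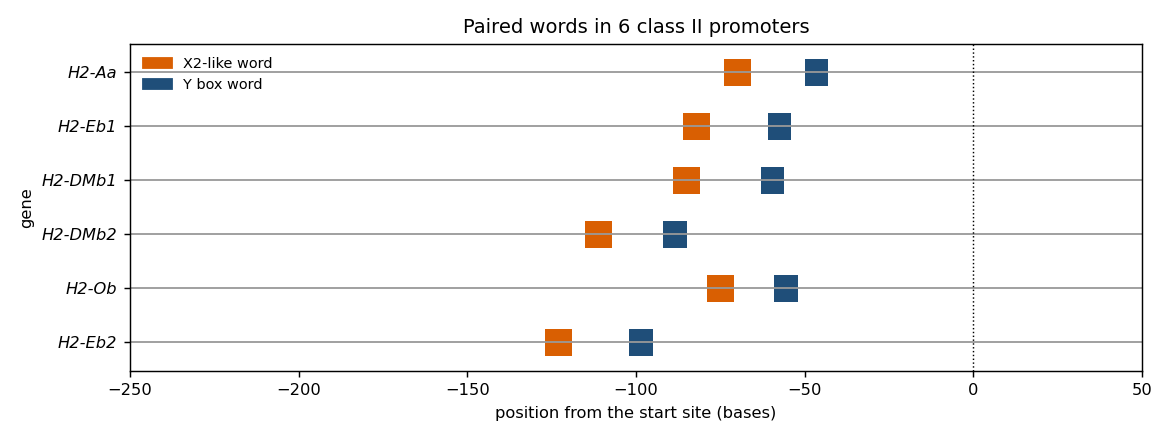
Position of the X2-like word (orange) and the Y box TGATTGG (blue) in bases from the start site (dotted line), along windows from 250 bases before to 50 bases after it, for 4 of the 8 class II genes and for H2-Ob and H2-Eb2. The pairs keep a spacing of 20 to 26 bases while the Y box starts between -102 and -50.

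The libraries held 3835042 to 50461867 gene counts, with 1 shallow library (blank replicate 3) and a median of 41926353. In 3 libraries (blank replicate 3, DSCG replicate 2, pre-MCS-01 replicate 2), called length-skewed here, long transcripts were under-represented: Spearman's rho across genes between transcript length and a gene's level relative to the other libraries was -0.385 to -0.320, against -0.0559 to 0.337 in the other 9. None of the 3 is a post-MCS-01 library, and the medians of the 8 genes and the values they move most are also given without them. Summed keratinocyte markers (Krt5, Krt14, Krt10, Krt1 and Trp63) reached 16690 to 59439 CPM (gene counts scaled to a common library size), the defining genes of the labelled tissue. Hair shaft and root sheath markers were far lower in the post-MCS-01 libraries, with sums of 27.3 to 70.0 CPM against 1636 to 34024 CPM in the other 9 libraries. All 5 of them passed the edgeR test as lower in post-MCS-01, against both pre-MCS-01 and DSCG. Of all genes, 0.824% and 1.06% passed in these comparisons, in either direction. In both comparisons none of the 5 passed when 1 post-MCS-01 library, whichever it was, was left out, or without the 3 length-skewed libraries, where no gene at all passed, although their log2 fold changes stayed between -11.9 and -6.33 under every alternative run. Against pre-MCS-01 none of the 5 passed without pre-MCS-01 replicate 2 either. Against DSCG none passed without DSCG replicate 2 or replicate 3, in a fit of the 2 groups alone or in a fit that weights libraries by quality. The part of the hair marker difference in the class II levels was not tested.

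Class II messages were high in the post-MCS-01 wounds of 2 mice and lower in those of the third, and no gene of the 8 differed between any groups past the threshold. Group means ran post-MCS-01, blank, DSCG, pre-MCS-01 from high to low for 7 of the 8 genes. For Ciita the order was post-MCS-01, blank, pre-MCS-01, DSCG. Summed over the 8 genes, the level was 1385 to 1950 CPM in pre-MCS-01, 1422 to 3091 in DSCG, 1902 to 3109 in blank and 1767 to 3422 in post-MCS-01. Every pair of groups thus overlapped, also post-MCS-01 and pre-MCS-01 at the ends of that order. In bulk RNA, fewer class II-bearing cells and less class II RNA per cell cannot be told apart.

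**Figure D2:**
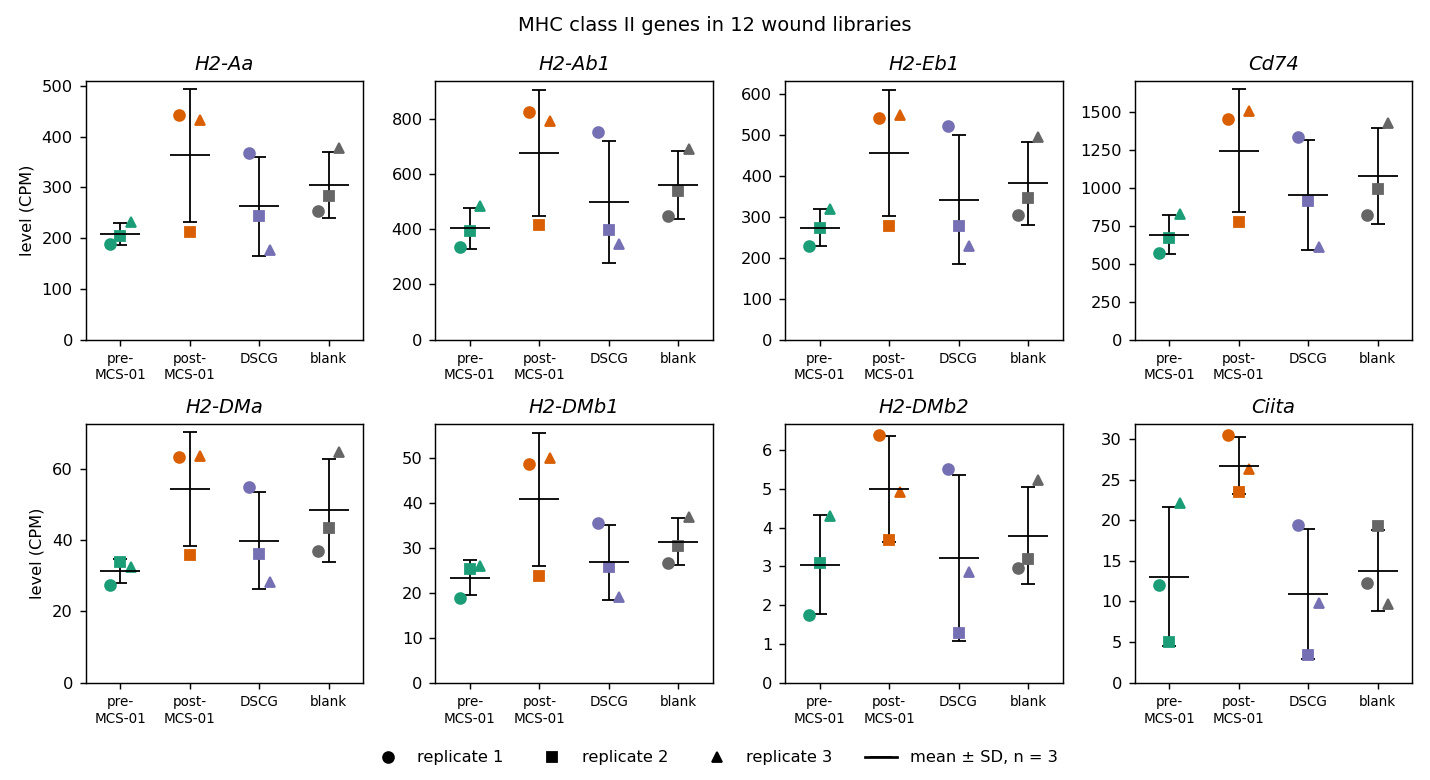
Level in CPM (linear axis from 0) of the 8 class II genes in each of 12 libraries, by group, with symbols for replicates 1 to 3 and the mean ± SD of 3 libraries in black. Post-MCS-01 replicate 2 sits below the other 2 post-MCS-01 libraries in every panel, and in the Ciita panel all 3 post-MCS-01 libraries, at 23.4 to 30.4 CPM, lie above the other 9.

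H2-Ab1 encodes the beta chain of I-A, the class II molecule that C57BL/6 mice carry on the cell surface. Its level was 337, 393 and 485 CPM in pre-MCS-01, 753, 400 and 347 in DSCG, 450, 539 and 693 in blank and 826, 415 and 795 in post-MCS-01. The lowest post-MCS-01 value lay within the pre-MCS-01 range, and the highest DSCG value lay near the upper post-MCS-01 values. The group means were 405 ± 74.8 (SD, n = 3) in pre-MCS-01, 500 ± 221 in DSCG, 561 ± 123 in blank and 679 ± 229 in post-MCS-01.

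H2-Aa, the alpha chain that pairs with it, was measured at 188, 203 and 232 CPM in pre-MCS-01, 368, 244 and 175 in DSCG, 252, 283 and 377 in blank and 442, 212 and 433 in post-MCS-01. All 3 blank libraries were above all 3 pre-MCS-01 libraries, while post-MCS-01 replicate 2 fell inside the pre-MCS-01 range. Per kilobase of transcript, the H2-Aa level was 0.515 to 0.657 of the H2-Ab1 level over the 12 libraries, although both chains enter the same molecule. The SD of the log2 ratio was 0.096, so the pair moved nearly as one gene while each ranged about 2.5-fold (2.52-fold for H2-Aa and 2.46-fold for H2-Ab1).

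H2-Eb1 encodes the beta chain of I-E. The alpha partner is a pseudogene in this strain, and the gene listed for it, H2-Ea-ps, had 2 counts over all 12 libraries. H2-Eb1 itself was at 228, 273 and 319 CPM in pre-MCS-01, 521, 277 and 228 in DSCG, 303, 346 and 495 in blank and 541, 278 and 549 in post-MCS-01. Its ratio to H2-Ab1 per kilobase was the steadiest of the 6 pairs compared, at 0.467 to 0.519 with an SD of 0.045 on the log2 scale. The message of the chain without its usual partner thus stayed at close to a constant share of that of H2-Ab1 in every library.

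Cd74, the invariant chain that guards the groove, was the most abundant of the 8. It stood at 572, 670 and 829 CPM in pre-MCS-01, 1333, 913 and 612 in DSCG, 817, 989 and 1427 in blank and 1451, 775 and 1501 in post-MCS-01. The 2 highest values were again post-MCS-01 libraries and the third post-MCS-01 value lay within the pre-MCS-01 range. Per kilobase its level exceeded that of H2-Ab1 in 12 of 12 libraries, by 1.46- to 1.96-fold.

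Mean levels per kilobase over the 12 libraries were 703 CPM per kb for Cd74, 442 for H2-Ab1, 252 for H2-Aa, 218 for H2-Eb1, 26.2 for H2-DMa, 21.8 for H2-DMb1, 2.68 for Ciita and 2.64 for H2-DMb2. Cd74, H2-Ab1, H2-Aa and H2-Eb1 thus lay about 1 order of magnitude above H2-DMa and H2-DMb1, which in turn lay about as far above Ciita and H2-DMb2. These lengths are those of the principal annotated transcript, 1128 to 1669 bases for 7 genes and 6007 bases for Ciita. All annotated exons together cover 3798 bases of H2-Aa and 1944 of H2-Eb1, and 9535 of Ciita and 1747 of H2-DMb2. The order within these 2 pairs, and that of H2-DMa and H2-DMb1, thus rests on the length used.

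The exchange factor H2-DM is built from H2-DMa and either beta chain. H2-DMa was at 27.4, 33.8 and 32.6 CPM in pre-MCS-01, 55.0, 36.2 and 28.4 in DSCG, 37.1, 43.5 and 64.7 in blank and 63.5, 35.8 and 63.7 in post-MCS-01. It is 1 of 2 genes of the 8 whose post-MCS-01 libraries were all above the pre-MCS-01 libraries, by a narrow margin (35.8 against 33.8 CPM). H2-DMb1 was at 18.8, 25.2 and 25.9 CPM in pre-MCS-01, 35.5, 25.8 and 19.0 in DSCG, 26.7, 30.4 and 36.9 in blank and 48.7, 23.7 and 49.96 in post-MCS-01. Here post-MCS-01 replicate 2 lay inside the pre-MCS-01 range. Per kilobase of the principal transcript (1658 and 1404 bases), the H2-DMa level was 1.07 to 1.48 times that of H2-DMb1 and the higher in all 12 libraries. All annotated exons together cover 3448 bases of H2-DMa and 1681 of H2-DMb1. Which of the 2 is the higher per kilobase thus rests on the length used.

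H2-DMb2, the second beta chain gene, was the lowest of the 3, at 1.74, 3.10 and 4.30 CPM in pre-MCS-01, 5.52, 1.27 and 2.86 in DSCG, 2.96, 3.18 and 5.24 in blank and 6.40, 3.67 and 4.91 in post-MCS-01. All groups overlapped. Its counts came to 4.94% to 16.6% of those of H2-DMb1. Of the 50-base stretches of its transcript, 32.8% also occur in other genes, H2-DMb1 among them, and 27.2% of those of H2-DMb1 occur elsewhere. The split between the 2 beta chains is therefore uncertain, since reads of shared stretches may be lost or misplaced.

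Ciita, the transactivator, had a pattern of its own. It was at 12.0, 5.03 and 22.1 CPM in pre-MCS-01, 19.4, 3.47 and 9.87 in DSCG, 12.3, 19.3 and 9.69 in blank and 30.4, 23.4 and 26.3 in post-MCS-01. Its level was the highest in the 3 post-MCS-01 libraries, although the gap to the next library was small (23.4 against 22.1 CPM). Of the 16267 genes tested, 257 (1.58%) had all 3 post-MCS-01 libraries above the other 9, and no other class II gene of the 8 did. The group means were 26.7 ± 3.51 CPM (SD, n = 3) in post-MCS-01, 13.8 ± 4.99 in blank, 13.04 ± 8.56 in pre-MCS-01 and 10.9 ± 8.03 in DSCG.

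Ciita was also the gene that parted most from the rest. The class II level is defined as the mean log2 CPM of the 8 genes. The SD over the 12 libraries of each gene's log2 ratio to that level was 0.71 for Ciita and 0.34 for H2-DMb2. It was 0.0997 to 0.20 for H2-Aa, H2-Ab1, H2-Eb1, H2-DMa, H2-DMb1 and Cd74. The 3 lowest ratios of Ciita to the mean of the other 7 were those of the 3 length-skewed libraries, at -4.58 to -4.01 on the log2 scale against -2.99 to -1.99 in the other 9. Ciita has by far the longest transcript of the 8. In blank replicate 3 its value rests on 37 counts. In post-MCS-01 replicate 2, where the other 7 genes were lower than in the other 2 post-MCS-01 libraries, the Ciita ratio was the highest of the 12 libraries.

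**Figure D3:**
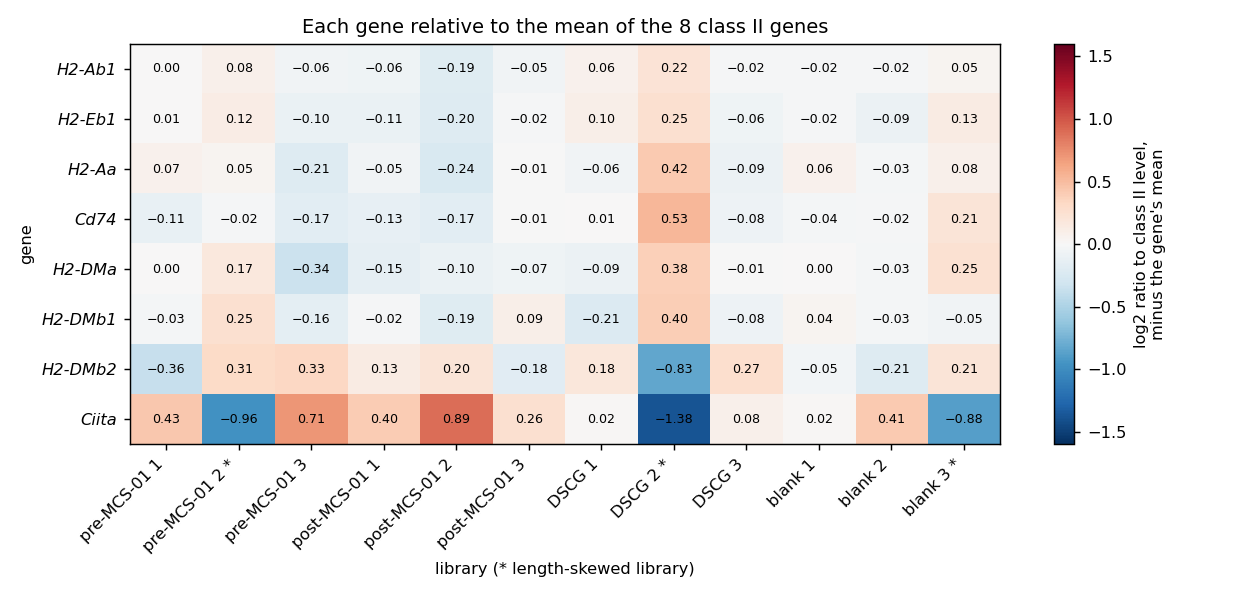
Log2 ratio of each class II gene to the mean log2 CPM of all 8 in the same library, minus that gene's mean over 12 libraries (red above, blue below, value in each cell), with the 3 length-skewed libraries starred. The 6 upper genes stay within about 0.5 of their mean, while Ciita is lowest in the starred columns.

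The comparison of post-MCS-01 with pre-MCS-01 asks how wounds under those labels differed. All 8 genes had higher fitted levels in post-MCS-01, with log2 fold changes of 0.71 to 1.03 and a median of 0.80, against a median of -0.025 over all genes tested. None passed the edgeR test, with adjusted p of 0.389 to 0.656, where 0.824% of all genes passed it (0.0184% as higher). At an unadjusted p under 0.05 there were 4 of the 8, H2-Aa, H2-DMa, H2-DMb1 and Cd74, against 4.20% of all genes as higher. These 8 genes move together, so the 4 are not separate observations.

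By gene, H2-Aa differed by 0.80 ± 0.33 (log2 fold change ± SE, adjusted p = 0.427 by edgeR), which is a 1.75-fold level with a 95% interval of 0.085 to 1.52 on the log2 scale. Cd74 differed by 0.85 ± 0.35 (adjusted p = 0.445 by edgeR), H2-DMa by 0.80 ± 0.30 and H2-DMb1 by 0.81 ± 0.31. The largest fitted difference was that of Ciita, 1.03 ± 0.59, with the widest interval of the 8 (-0.25 to 2.32) and adjusted p = 0.588 by edgeR. The groups did not overlap for H2-DMa and Ciita, 2 of the 8, where 7.01% of all genes had every post-MCS-01 library above every pre-MCS-01 library. Without the 3 length-skewed libraries the median of the 8 was 0.79, and the Ciita difference fell to 0.67. Without post-MCS-01 replicate 2 the median was 1.11 and the lowest adjusted p, that of H2-DMb1, was 0.144 by edgeR.

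One way of weighting the libraries changed these calls. Limma-voom with library quality weights, which lets well-fitting libraries count for more, put all 8 genes past the threshold in this comparison, at log2 fold changes of 1.11 to 1.55 and adjusted p of 0.00296 to 0.0112. Under the same weights 12.3% of all genes passed as higher. The weights were 5.48 for pre-MCS-01 replicate 1, which had the lowest class II level of the 12, and 4.81 for post-MCS-01 replicate 1, which had the highest, against 0.476 for post-MCS-01 replicate 2. DESeq2, by which 0.596% of all genes passed as higher, and limma-voom without weights, by which 0% did, called none of the 8, like edgeR. The call thus depended on how much each mouse counted.

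**Figure D4:**
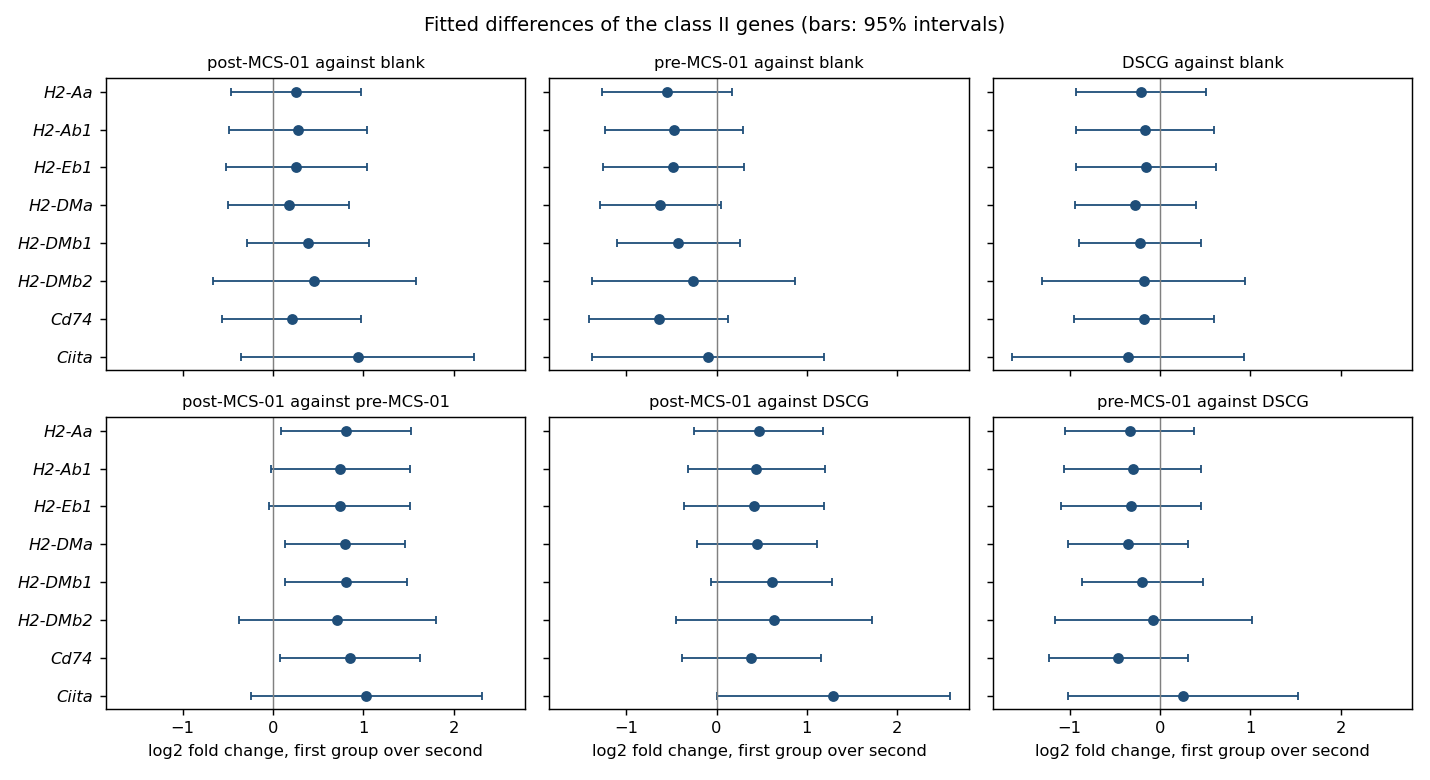
Fitted log2 fold change of each class II gene in the 6 comparisons of 2 groups, first group over second, with points for the edgeR estimate and bars for its 95% interval. In the post-MCS-01 against pre-MCS-01 panel all points lie between 0.71 and 1.03, and in the DSCG against blank panel between -0.36 and -0.16.

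Post-MCS-01 against blank compares one treated label with the blank wounds. The 8 fitted differences were all positive but small for the main chains, with a median of 0.27 on the log2 scale (all genes -0.0064), and none passed (adjusted p 0.703 to 0.961 by edgeR), where 0% of all genes did. At an unadjusted p under 0.05 there were 0 of the 8 and 9.35% of all genes. H2-Ab1 differed by 0.28 ± 0.35 and Cd74 by 0.21 ± 0.35, with a 95% interval of -0.56 to 0.98. Ciita differed by 0.94 ± 0.59 and its groups did not overlap, like 8.92% of all genes in that direction. Without the 3 length-skewed libraries, which include 1 blank library, the Ciita difference was 0.76 and that of H2-Ab1 was 0.47.

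Pre-MCS-01 against blank went the other way in all 8 genes. The median was -0.47 on the log2 scale (all genes 0.037) and none passed (adjusted p 0.703 to 0.979 by edgeR), where again 0% of all genes did. At an unadjusted p under 0.05 there were 0 of the 8 and 7.24% of all genes. Cd74 had the largest difference, -0.64 ± 0.35, and H2-DMa was next at -0.62 ± 0.31. Without the 3 length-skewed libraries the median was -0.33 and Ciita turned to 0.092. H2-Aa, H2-DMa and H2-DMb1 had every pre-MCS-01 library below every blank library, 3 of the 8, where 5.96% of all genes did. Post-MCS-01 and pre-MCS-01 were set against the same blank libraries, so these 2 comparisons are not independent of each other.

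DSCG against blank had the smallest median difference of the 3 comparisons with blank, though not the smallest value for each gene (Ciita was -0.36 here and -0.098 in pre-MCS-01 against blank). The fitted values were -0.36 to -0.16 with a median of -0.20 (all genes -0.0016), adjusted p = 0.999 by edgeR for each of the 8, and 0% of all genes passed. At an unadjusted p under 0.05 there were 0 of the 8 and 1.03% of all genes. Within DSCG the first library stood well above the other 2 in H2-Ab1 (753 CPM against 400 and 347), so the group's own spread exceeded its distance from blank. Without DSCG replicate 1 the median was -0.58, and without the 3 length-skewed libraries it was 0.089, with a change of sign. The direction of DSCG against blank was therefore not fixed by these data.

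Against DSCG, the post-MCS-01 levels were higher in all 8 genes, with a median of 0.46 on the log2 scale and adjusted p of 0.440 to 0.718 by edgeR, where 1.06% of all genes passed. Ciita had the largest difference, 1.29 ± 0.59 (2.45-fold, unadjusted p = 0.0496 and adjusted p = 0.440 by edgeR, where 4.63% of all genes were higher at an unadjusted p under 0.05), and the only groups of the 8 that did not overlap, where 7.14% of all genes were higher in that way. Without DSCG replicate 1 it was 2.004, and without the 3 length-skewed libraries 0.86. Pre-MCS-01 against DSCG had a median of -0.31 with adjusted p = 1.00 by edgeR for each gene, and 0% of all genes passed (0 of the 8 and 2.36% of all genes at an unadjusted p under 0.05). Ciita was the single gene of the 8 with a positive value there, 0.26 ± 0.58. Without the 3 length-skewed libraries the median was -0.46 and Ciita was 0.19. Its sign, like those of 4 other genes of the 8, turned when 1 library was left out.

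A joint edgeR test of the 4 groups gave p of 0.101 (H2-DMb1) to 0.486 (H2-DMb2) and adjusted p of 0.713 to 0.908, with 0% of all genes past the threshold and 8.42% at an unadjusted p under 0.05. None of the 8 was among the latter. Leaving out the 3 length-skewed libraries, the joint p was 0.140 to 0.392 and the adjusted p 0.857 to 0.910 by edgeR. With quality weights in limma-voom all 8 passed the joint test, as did 13.5% of all genes. In the other 5 comparisons of 2 groups, DESeq2 and limma-voom with or without these weights called none of the 8. DESeq2 called 2.50% of all genes in post-MCS-01 against blank, 0.418% in pre-MCS-01 against blank, 3.81% in post-MCS-01 against DSCG and 0.105% in pre-MCS-01 against DSCG. The weighted fit called 15.3% in pre-MCS-01 against blank and 5.08% in post-MCS-01 against blank, limma-voom without weights called 0.0123% in post-MCS-01 against DSCG, and the shares in the remaining pairs were 0%.

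The promoter-binding factors that recruit Ciita differed little as a list, though Rfxank was lower in post-MCS-01. Rfx5, Rfxap and Rfxank (the RFX complex), Nfya, Nfyb and Nfyc (NF-Y) and Creb1 summed to 135 to 182 CPM over the 12 libraries, and the SD of their mean log2 CPM was 0.091 against 0.49 for the class II level. In post-MCS-01 against pre-MCS-01 none of the 7 passed the edgeR test, 1 (Rfxank) was lower at an unadjusted p under 0.05, 3 were positive and the median was -0.024. The largest difference was that of Rfxank, at 8.94 ± 0.637 CPM against 12.5 ± 0.862 (SD, n = 3), a log2 fold change of -0.48 ± 0.18 with adjusted p = 0.388 by edgeR. In the 3 post-MCS-01 libraries Rfxank was at 9.67, 8.64 and 8.51 CPM, below the other 9, which ran from 10.8 to 16.2 CPM. The shares of all genes lower in these 2 ways are not given here, so how unusual Rfxank is cannot be read. In the other direction, 4.20% of all genes were higher at an unadjusted p under 0.05 against pre-MCS-01. All 3 post-MCS-01 libraries were above the other 9 for 1.58% of all genes. Nfya (0.12), Nfyb (0.075) and Creb1 (0.058) differed little.

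Interferon gamma, the best-known inducer of Ciita, was barely detected. Ifng was between 0 and 0.304 CPM in the 12 libraries, with 59 counts in all, and did not pass the filter on low counts. Of 13 tested genes of its receptor, signalling and induced set, 12 were positive in post-MCS-01 against pre-MCS-01 with a median of 0.65. None passed the edgeR test and 1, Ifngr1, had an unadjusted p under 0.05, against 4.20% of all genes as higher. Over 14 genes, Ifng included, the median was 0.42 without the 3 length-skewed libraries. Ifngr1, a receptor chain, was at 124 ± 19.1 CPM in post-MCS-01 and 72.8 ± 4.79 in pre-MCS-01, a difference of 0.77 ± 0.29 (adjusted p = 0.389 by edgeR). The induced genes Iigp1 (0.87 ± 0.69), Cxcl10 (0.85 ± 0.81) and Irgm1 (0.69 ± 0.50) had wide errors. In post-MCS-01 against DSCG all 13 tested genes were positive, with a median of 0.89. None passed the edgeR test and 4 had an unadjusted p under 0.05, where 4.63% of all genes were higher. Against blank all 13 were positive too, with a median of 0.48. Again none passed, and 3 had an unadjusted p under 0.05, where 9.35% of all genes did in either direction. These genes are not separate observations. The set's mean level followed class II less closely than the dendritic cell markers did, with an SD of the log2 ratio of 0.46. Summed, the set reached 614 to 769 CPM in post-MCS-01 and at most 599 CPM in the other 9 libraries. Its mean log2 CPM did not separate the groups in this way, at 4.51 in post-MCS-01 replicate 1 and 4.88 in pre-MCS-01 replicate 1.

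Among the other class II and peptide-loading genes, 8 of 10 tested were positive in post-MCS-01 against pre-MCS-01, with a median of 0.51. None passed the edgeR test and 3 had an unadjusted p under 0.05, against 4.20% of all genes as higher. The genes were measured in the same libraries, so the 3 are not separate observations. March1, a ubiquitin ligase that removes class II from the surface, was at 8.72 ± 0.929 CPM in post-MCS-01 and 4.09 ± 1.33 in pre-MCS-01 (1.09 ± 0.38, adjusted p = 0.339 by edgeR). Ctss, the protease that trims the invariant chain, differed by 0.90 ± 0.35, and the asparaginyl endopeptidase Lgmn by 0.86 ± 0.33 (adjusted p = 0.395 by edgeR for both). Ctss was the 14th of 13426 genes in likeness to the class II level. H2-Ob, an inhibitor chain of H2-DM, was low at 1.56 ± 0.687 against 1.05 ± 0.294 CPM and differed by 0.57 ± 0.43. The sum of the list differed little, at 4854 ± 901 CPM (SD, n = 3) in post-MCS-01 and 4817 ± 261 in pre-MCS-01. It was 5083 ± 604 in DSCG and 5567 ± 358 in blank. Post-MCS-01 replicate 2 had the lowest sum of the 12 libraries, 3819 CPM.

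Class I presentation genes, which serve CD8+ T cells in all nucleated cells, moved less. In post-MCS-01 against pre-MCS-01, 12 of 13 were positive with a median of 0.31. None passed the edgeR test and 0 had an unadjusted p under 0.05, against 4.20% of all genes as higher. Psmb8 (0.48 ± 0.32), Erap1 (0.44 ± 0.28), B2m (0.42 ± 0.28) and Nlrc5 (0.38 ± 0.40), the class I transactivator, had the largest differences. The mean log2 level of the class I list had an SD of 0.23 over the 12 libraries. Neighbours within the class II region that are no class II genes had a median of 0.17 with 6 of 10 positive (0.063 without the 3 length-skewed libraries), and Brd2, whose gene overlaps H2-DMa, stood at 260 ± 3.98 CPM in post-MCS-01 and 264 ± 7.83 in pre-MCS-01. Btnl2 had the largest difference of the neighbours (1.46 ± 0.41, adjusted p = 0.198 by edgeR). None of the 10 passed.

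The mean levels of 2 lists of antigen-presenting cell markers moved with the class II level, though several single markers did not. Of 12 dendritic and Langerhans cell markers, all were positive in post-MCS-01 against pre-MCS-01, with a median of 0.82. None passed the edgeR test and 5 had an unadjusted p under 0.05, against 4.20% of all genes as higher. The markers were measured in the same libraries, so the 5 are not separate observations. Summed, the 12 markers reached 151 to 217 CPM in post-MCS-01, 92.7 to 117 in pre-MCS-01, 109 to 169 in DSCG and 126 to 197 in blank. No marker was at 0 in any library. Cd209a differed by 1.65 ± 0.55, Ccr7, the lymph-node homing receptor, by 1.25 ± 0.36, Itgax (CD11c) by 1.17 ± 0.34 and Cd207 (langerin) by 0.89 ± 0.60. Ccr7 passed the edgeR test in post-MCS-01 against DSCG (1.95 ± 0.36, adjusted p = 0.0353), the single marker of this list to pass in any comparison. Its log2 fold change stayed between 1.78 and 2.23 under the alternatives, but the call was lost without any 1 post-MCS-01 library, without DSCG replicate 2 or replicate 3, without the 3 length-skewed libraries, in the fit of the 2 groups alone and in limma-voom with or without weights (adjusted p up to 0.238). The mean log2 level of the list tracked class II with an SD of the log2 ratio of 0.21, the smallest of the 16 lists. Of its 10 markers with a mean of at least 1 CPM, Cd209a (SD of the log2 ratio 0.73) and Cd207 (0.83) followed class II less closely than the median gene (0.63). A gene of constant level would have 0.49, the SD of the class II level itself. Ccr7 (0.60), Zbtb46 (0.59), Batf3 (0.54) and Clec10a (0.52) were also above that value. Itgax (0.45), Flt3 (0.38), Irf4 (0.36) and Irf8 (0.35) were below it.

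All 12 macrophage markers were positive too, with a median of 0.87. None passed the edgeR test and 5 had an unadjusted p under 0.05, against 4.20% of all genes as higher. These 5 share their libraries as well and are not separate observations. Summed, the 12 markers reached 1569 to 3138 CPM in post-MCS-01, 1124 to 1582 in pre-MCS-01, 1238 to 2504 in DSCG and 2051 to 2099 in blank. No marker was at 0 in any library. Mrc1, the mannose receptor, differed by 1.496 ± 0.36 (adjusted p = 0.104 by edgeR), Cd68 by 1.07 ± 0.31, Fcgr1 by 1.05 ± 0.53 and Csf1r by 0.95 ± 0.35. The SD of the log2 ratio of class II to this list was 0.26, and Mertk (0.79) was the single marker that followed class II less closely than the median gene. Fcgr1 (0.56) and Aif1 (0.51) were also above 0.49, the value of a gene of constant level. Without the 3 length-skewed libraries the medians were 0.63 for the dendritic and 0.90 for the macrophage list. The part of both marker lists in the class II levels was not tested.

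**Figure D5:**
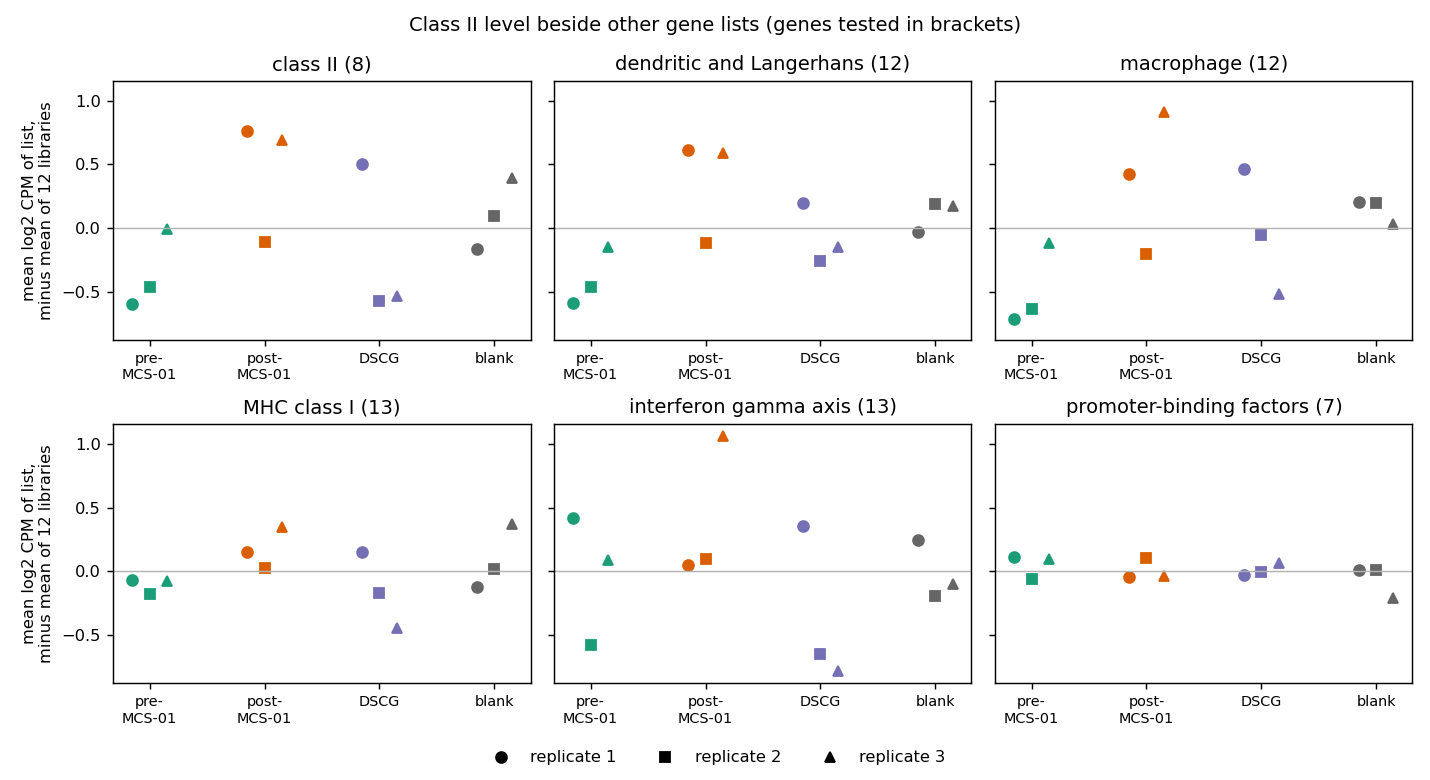
Mean log2 CPM of the genes of 6 lists in each library, minus the mean over 12 libraries, by group with symbols for replicates 1 to 3. The dendritic and macrophage panels place post-MCS-01 replicate 2 below the other 2 post-MCS-01 libraries as the class II panel does, and the promoter-binding factors stay near 0.

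Co-stimulatory genes of presenting cells had 7 of 7 positive in post-MCS-01 against pre-MCS-01, with a median of 0.77 and none past the threshold by edgeR. At an unadjusted p under 0.05 there were 3, against 4.20% of all genes as higher, and these too are not separate observations. Cd274 (PD-L1) differed by 1.18 ± 0.52, Cd40 by 0.85 ± 0.40, Cd86 by 0.77 ± 0.31 and Cd83 by 0.66 ± 0.45. Their sum was 67.4 to 98.3 CPM in post-MCS-01 and at most 54.6 CPM in the other 9 libraries. That separation rests on Cd274. Without it, a sum added after the data were seen, the post-MCS-01 sums were 45.6, 34.9 and 44.0 CPM and the others 28.0 to 36.2 CPM, so the groups overlapped.

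Other cell types that carry class II or respond to it were followed by their own markers. Among 8 T cell markers 6 were positive with a median of 0.15, and 0 had an unadjusted p under 0.05 by edgeR. The largest values were those of Cd4 (0.66 ± 0.66) and Cd2 (0.63 ± 0.48). The CD3 chain genes Cd3e (0.19 ± 0.46), Cd3g (0.11 ± 0.62) and Cd3d (0.020 ± 0.58) differed less. Lck (-0.075 ± 0.50) and Cd5 (-0.12 ± 0.49) were negative. B cell markers summed to 1.67 to 14.3 CPM, and Pax5 and Ms4a1 had 28 and 35 counts over all 12 libraries. Ptprc, the pan-leukocyte gene, was at 45.3 to 66.4 CPM in post-MCS-01 and 16.9 to 43.9 in pre-MCS-01. Markers of mast cells, the cells a stabilizer such as MCS-01 is aimed at, summed to 99.3 to 253 CPM in post-MCS-01 and 141 to 185 in pre-MCS-01. Within that list Kit went the other way from the rest, at 8.58 ± 2.09 against 20.6 ± 5.26 CPM (SD, n = 3). Its log2 fold change was -1.26 ± 0.41, with adjusted p = 0.291 by edgeR. The 2 groups did not overlap for Kit. The share of all genes lower without overlap is not given here, while 7.01% were higher without overlap. All 4 fibroblast markers were positive with a median of 0.47, led by Dcn (0.78 ± 0.35) and Pdgfra (0.76 ± 0.49), and without the 3 length-skewed libraries 2 of 4 were positive with a median of 0.15. Neutrophil markers summed to 4423 to 9953 CPM in post-MCS-01, 3960 to 6377 in pre-MCS-01, 27.6 to 3644 in DSCG and 481 to 871 in blank, an order unlike that of class II. None of these lists had a gene past the threshold between post-MCS-01 and pre-MCS-01 by edgeR.

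Over the 13426 genes with a mean of at least 1 CPM outside the 8, the 10 whose levels kept the steadiest ratio to the class II level in the 12 libraries were Tnfaip8l2 (SD of the log2 ratio 0.16), H2-M3 (0.19), Ptpro (0.20), Lrmp (0.20), Cd48 (0.22), Cd86 (0.22), Tmem37 (0.22), Kmo (0.22), Evi2a (0.23) and Gpr146 (0.24). The median gene had 0.63, and 14.1% of genes had less than 0.49, the SD of the class II level itself. Tnfaip8l2 ranged from 12.7 to 31.6 CPM. H2-M3, a non-classical class I gene, ranged from 5.99 to 15.1 CPM and Cd86, a co-stimulatory ligand, from 3.36 to 8.97 CPM. The order rests on the libraries used: without the 3 length-skewed ones 3 of these 10 were among the first 10, and with the level taken without Ciita and H2-DMb2, an alternative added after the data were seen, 6 were.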

How the data were processed

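Total RNA of 12 wounds was made into TruSeq libraries, per the labels' protocols. The deposited files hold read counts per gene symbol (24062 genes and 5 summary lines). Per the submitters' processing notes, the mouse build was mm10 and the tools were HTSeq, TopHat2, Bowtie2, limma and FastQC. Their versions, strand and annotation are not given in the sources used here. Reads not uniquely placed came to 17.2% to 23.4% of all, ambiguous ones to 0.956% to 1.35% and reads in no gene to 4.34% to 6.81%, and these stayed out of library sizes.

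Counts were fitted in R 4.3.3 with edgeR 4.0.16 (filterByExpr, TMM factors of 0.905 to 1.07, quasi-likelihood test, two-sided, 1 mean per group over all 12 libraries) and adjusted by Benjamini-Hochberg over 16267 genes, with a threshold of 0.05. The biological coefficient of variation was 0.347. The scripts were tested on simulated data. CPM used TMM library sizes and log2 CPM a prior count of 2. Errors are SD for levels and SE for log2 fold changes. An exact permutation test of a single value (3 against 3, two-sided) cannot go below 0.1. Transcript lengths, known for 95.4% of genes, and shared 50-base stretches are from GENCODE M21 (GRCm38).

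All 8 genes were named in full. In other lists, genes past the threshold and up to 4 with the largest post-MCS-01 against pre-MCS-01 difference at a mean of at least 1 CPM were named, besides the promoter-binding factors and Ifng. Brd2, Ctss's rank, Pax5, Ms4a1 and the SDs of the log2 ratio of single dendritic and macrophage markers were added after their values were seen. So were Cd3g, Cd3d, Lck and Cd5. Members and lists were chosen with earlier results of these data known. Alternatives were RLE or total-count scaling, no filter, 2-group fits, DESeq2 1.42.0, limma-voom (limma 3.58.1) with and without quality weights, leaving out each library and leaving out 3 libraries. Replicate numbers follow the order of the records and pair nothing. No 2 libraries were identical, and libraries of a group differed beyond sampling noise.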

Additional observations from a re-analysis of the deposited data

How the results depend on the processing

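Of 672 values of single genes under the alternatives, 634 kept their direction and side of the threshold, 30 changed sign and 8 passed the threshold, the 8 genes under quality weights in post-MCS-01 against pre-MCS-01. That fit also gave 8 in the joint test. Leaving out any 1 library called none of the 8 genes in any comparison. No paired analysis was possible because the labels give every mouse its own number.

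Values changed sign in the comparisons of pre-MCS-01, DSCG and blank, none of those with post-MCS-01. In DSCG against blank without the 3 length-skewed libraries the log2 fold changes were 0.033 (H2-Aa), 0.17 (H2-Ab1), 0.22 (H2-Eb1), 0.060 (H2-DMa), 0.46 (H2-DMb2) and 0.12 (Cd74), with a median of 0.089. With quality weights they were 0.0061 (H2-Eb1) and 0.031 (H2-DMb2). In pre-MCS-01 against blank, Ciita was 0.092 without those 3 libraries, and in pre-MCS-01 against DSCG H2-DMb2 was 0.093 by limma-voom. The cause was not tested.

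Leaving out 1 library gave, in pre-MCS-01 against blank, -0.64 to 0.024 (H2-DMb2) and -0.75 to 0.29 (Ciita). In pre-MCS-01 against DSCG it gave -0.56 to 0.12 (H2-Ab1), -0.60 to 0.12 (H2-Eb1), -0.44 to 0.060 (H2-DMb1), -0.46 to 0.56 (H2-DMb2), -0.40 to 0.97 (Ciita) and -0.58 to 0.089 for the median, each highest without DSCG replicate 1. In DSCG against blank it gave -0.53 to 0.018 (H2-Aa), -0.59 to 0.051 (H2-Ab1), -0.59 to 0.076 (H2-Eb1), -0.81 to 0.21 (H2-DMb2), -0.50 to 0.076 (Cd74) and -1.07 to 0.066 (Ciita), each lowest without DSCG replicate 1.

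The number of all genes past the threshold moved widely. It was 134 in post-MCS-01 against pre-MCS-01 (0 to 131 without 1 library, 0 to 3818 under other alternatives), 172 against DSCG (0 to 606 and 0 to 620) and 0 against blank (up to 827). It was 0 in pre-MCS-01 against blank (up to 2485), in pre-MCS-01 against DSCG (up to 17) and in the joint test (up to 2189). The depth is lowest in blank replicate 3, where Ciita rests on 37 counts.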
